A study of Rattus norvegicus with 72 samples.

Results

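The lungs of rats that had breathed 1000 µg/m3 of diesel particles were compared with the lungs of rats that had breathed filtered air, both taken 27 days after the last exposure. Members were chosen by title: 6 libraries from the exposed rats (animals 021, 022, 023, 024, 045 and 046) and 6 libraries from the air rats of the same block of titles (animals 017, 018, 019, 020, 041 and 042, called air H here), 12 of the 72 libraries of the series. All animals were adult male Sprague-Dawley rats, an outbred strain, with no further treatment in the labels, and both groups breathed their atmosphere by whole-body inhalation 6 hours a day for 4 days. A piece of lung from each animal gave total RNA, which was depleted of ribosomal RNA and sequenced as a stranded library. The other day 27 libraries were 6 of 200 µg/m3 and 6 of their own air group (air L), and they were used for the spread between animals and as context.

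Diesel particles carry soot and polycyclic aromatic hydrocarbons. The hydrocarbons bind the aryl hydrocarbon receptor (AhR), which switches on Cyp1a1 and other enzymes that oxidise foreign compounds, and oxidants released by the particles free NRF2, a transcription factor of antioxidant genes. In the lung, alveolar macrophages take up particles and call in neutrophils through chemokines, while ciliated cells and the secretory club and mucous cells of the airway lining clear what lands on them. The piece of tissue was lung by its markers: in all 12 libraries Sftpc (surfactant protein C of type II cells) lay between 5266 and 7522 CPM (counts per 1000000 counts of the library, scaled by the trimmed mean of M values), Scgb1a1 (club cells) between 1449 and 2551 CPM, and Ager (type I cells) between 1397 and 1762 CPM. Marco, a scavenger receptor of macrophages, had 0 counts in all 12 libraries and was not used as a marker.

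Of the exposed libraries, 4 held 4969924 to 5736026 gene counts, while library 024 held 439393 and library 045 held 149004; the air H libraries held 4019679 to 6520180. A single count was worth 2.31 CPM in library 024 and 6.44 CPM in library 045, so a low gene in these libraries takes one of a few values only. The mean log10 total was lower by 0.437 in the exposed group, with p = 0.238 in an exact two-sided permutation test over 924 splits, and counts over all genes and over the lists are given with and without both libraries. On the first principal component of the 22 deeper libraries of the day (23.4% of the variance), the air H libraries lay between 7.45 and 14.2, and the air L libraries between -17.2 and -3.95. Exposed library 021 lay at 11 and 022 at 7.74, within the air H range, whereas 023 at 0.139 and 046 at -7.02 lay outside it, toward air L. No pair of libraries held identical counts.

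No gene passed the test across all genes. Of 14761 genes tested with edgeR's quasi-likelihood test, 0 had an adjusted p under 0.05, which is 0% of those tested, and 1034 (7%) had an unadjusted p under 0.05, with 454 higher (3.08%) and 580 lower (3.93%) in exposed lungs. Without libraries 024 and 045 the counts were 0 adjusted and 997 unadjusted of 14941 genes (6.67%), with 509 higher (3.41%) and 488 lower (3.27%). Without exposed library 023 alone, 673 genes had an unadjusted p under 0.05. DESeq2 on the same counts called 6 genes (0.0406%). All 6 exposed lungs lay above all 6 air H lungs in 29 genes (0.196%) and below them all in 53 genes (0.359%). With the 4 deeper exposed libraries alone, 137 genes (0.928%) lay above and 128 (0.867%) below all air H lungs. The median fold change over all tested genes was 0.00 on the log2 scale, 7433 genes being higher and 7328 lower. Differences of more than 2-fold in either direction lay outside the 95% interval for 94.2% of the genes, and differences of more than 1.5-fold for 76%; the median standard error was 0.12 (log2). In this tissue a lower level can mean fewer cells of a type or less RNA per cell, which cannot be told apart.

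The lowest unadjusted p-values among lower genes belonged to a matrix protein and a membrane enzyme. Fmod, fibromodulin, a small proteoglycan that binds collagen fibrils, had 11.8, 15.8 and 32.2 CPM in exposed lungs (lowest, median, highest), against 23.7, 34.7 and 58.4 CPM in air H lungs. Its log2 fold change was -1.21 (SE 0.23, 95% interval -1.68 to -0.74, edgeR adjusted p = 0.138), and -1.22 without libraries 024 and 045. Of the exposed lungs, 5 of 6 lay below every air H lung, and the one that did not was library 045, whose value rests on 5 counts. Steap4, a metalloreductase of the cell surface and endosomes, had 14.1, 22.3 and 45.1 CPM in exposed lungs, against 31.8, 38.5 and 57 CPM in air H lungs, a log2 fold change of -0.96 (SE 0.19, adjusted p = 0.138). Again the exposed lung inside the air range was library 045, with 7 counts. DESeq2 gave both genes an adjusted p under its threshold, 0.0028 for Fmod and 0.0091 for Steap4.

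The other lower genes included regulators of transcription, mRNA decay and autophagy. Ppp1r13b, which encodes the p53-binding protein ASPP1, had 53, 64.8 and 70.8 CPM in exposed lungs, against 76.5, 83.3 and 89.3 CPM in air H lungs, and the groups did not overlap. Zfp36l1, which binds AU-rich elements and speeds the decay of the mRNAs that hold them, had 98.8, 110 and 155 CPM in exposed lungs, against 158, 172 and 198 CPM in air H lungs, again with no overlap (log2 fold change -0.49, SE 0.13, adjusted p = 0.446). Prdm8, of the PRDM family of transcriptional regulators, also separated at a low level, with 0 to 2.61 CPM in exposed lungs and 3.24 to 5.02 CPM in air H lungs; its 0 is library 045, where a count of 0 allows up to 19.3 CPM (3 counts, counting error only), so that library bears little on low genes. Mnt, a partner of MAX that opposes MYC on DNA, had a median of 24.8 CPM in exposed lungs and 34.5 CPM in air H lungs, with overlap. Tp53inp2, a regulator of autophagy, had medians of 77.2 CPM in exposed and 99.2 CPM in air H lungs. The log2 fold changes of the other genes chosen by the same rule were -1.31 for Cd163l1 (a scavenger receptor family member), -0.82 for Gal3st3 (a galactose sulfotransferase), -0.54 for Tox3 (an HMG-box protein), -0.49 for Zfp503 (a zinc finger repressor) and -0.31 for Plekhg1 (a guanine nucleotide exchange factor). Of the 12 lower genes, 3 had groups that did not overlap, beside 0.359% of all genes, but they were chosen by the smallest p of the same values and nothing is read from that count.

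Among the higher genes, Rassf9, of the RAS-association domain family, had 29.4, 33.3 and 55.4 CPM in exposed lungs, against 17.5, 20.9 and 25.3 CPM in air H lungs, and every exposed lung lay above every air H lung. Its log2 fold change was 0.62 (SE 0.13, 95% interval 0.35 to 0.88, adjusted p = 0.16), and 0.56 without both shallow libraries; the highest value came from library 024, with 24 counts. Tfpi, the inhibitor of the tissue factor pathway that starts clotting, had 193, 248 and 300 CPM in exposed lungs, against 151, 178 and 199 CPM in air H lungs, a log2 fold change of 0.49 (SE 0.11, adjusted p = 0.271). Only library 045 fell within the air range for Tfpi. Mal2, which carries proteins to the apical face of epithelial cells, had 365, 380 and 410 CPM in exposed lungs, against 278, 296 and 339 CPM in air H lungs, and the groups did not overlap (log2 fold change 0.33, SE 0.08, adjusted p = 0.37). Polr3a, the largest subunit of RNA polymerase III, also did not overlap, at 42 to 73.8 CPM in exposed and 35.7 to 40.8 CPM in air H lungs. The same was true of Csprs, at 4.28 to 13.8 CPM in exposed and 1.29 to 3.48 CPM in air H lungs. Its highest value rests on 6 counts in library 024, and the next, 6.44 CPM, is 1 count in library 045. The remaining higher genes had log2 fold changes of 0.82 for Cplx2 (complexin 2, of synaptic vesicle release), 0.72 for Nsg1 (endosomal sorting in neurons), 0.68 for Shc2 (a signalling adaptor), 0.60 for Ccdc24, 0.35 for Rassf7, 0.31 for Tppp3 and 0.22 for Phldb2 (microtubule anchoring at the cell edge). Of the 12 higher genes, chosen in the same way, 4 had groups that did not overlap, beside 0.196% of all genes, and DESeq2 called Tfpi (adjusted p = 0.0205) and Rassf9 (adjusted p = 0.0497).

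**Figure D1:**
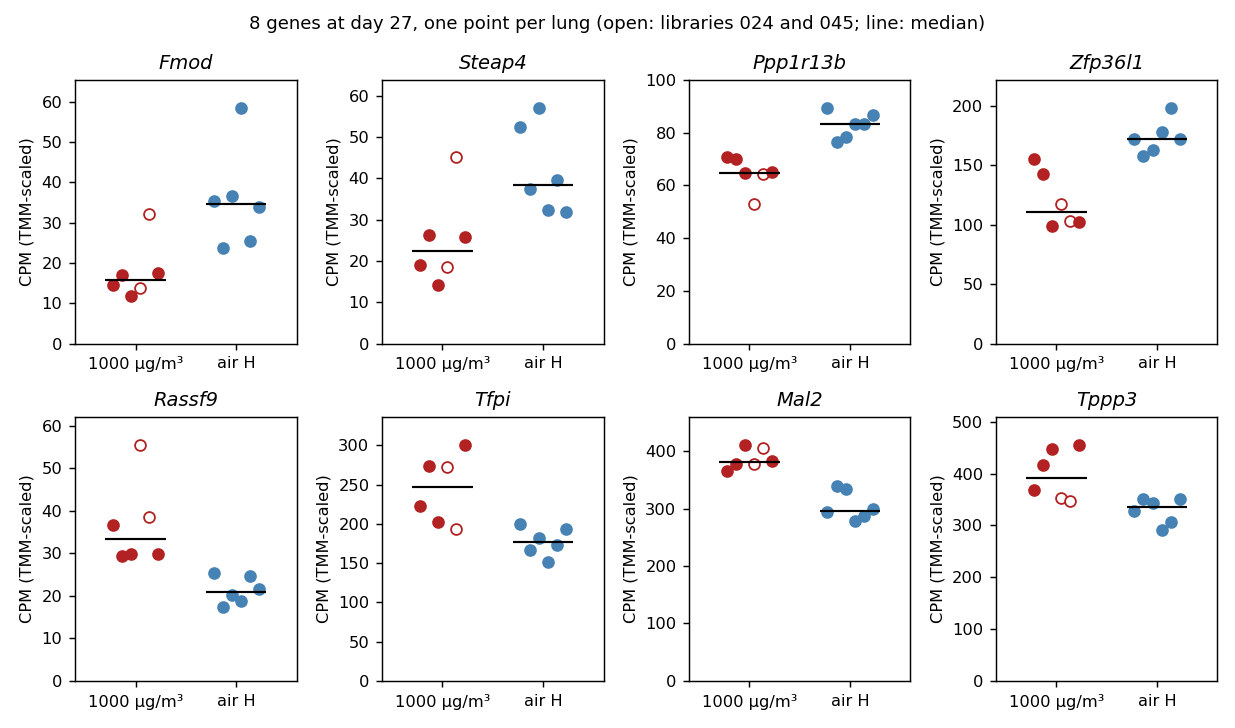
Level in CPM (TMM-scaled, linear axis from 0) of 8 genes in each lung at day 27, with the 1000 µg/m3 group left and air H right; each point is 1 animal, open points are libraries 024 and 045, and lines are medians. Ppp1r13b, Zfp36l1, Rassf9 and Mal2 show no overlap, while in Fmod and Steap4 the open point of library 045 lies within the air range.

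Levels in the other day 27 groups put these differences beside the distance between both air groups. Zfp36l1 had a median of 110 CPM at 1000 µg/m3, 172 CPM in air H, 136 CPM at 200 µg/m3 and 107 CPM in air L. Mal2 had medians of 380 CPM at 1000 µg/m3, 296 CPM in air H, 336 CPM at 200 µg/m3 and 368 CPM in air L. In both genes the air L median lay closer to the 1000 µg/m3 median than the air H median did. Tppp3 had the same layout, with medians of 392 CPM at 1000 µg/m3, 335 CPM in air H and 423 CPM in air L, and so had Ppp1r13b, with 64.8, 83.3 and 60.3 CPM in these groups. For Fmod the air L median of 21.7 CPM, and for Rassf9 that of 24.9 CPM, lay between the 1000 µg/m3 and air H medians. Air H set against air L gave 2071 genes (14%) with an adjusted p under 0.05 in edgeR, although both had breathed filtered air; the difference between exposed and air H lungs and the one between air groups share the air H libraries, and how far the air H libraries set these differences was not tested.

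Genes by which diesel hydrocarbons are usually read showed no shared direction. Of 6 tested AhR targets, 3 were higher and 3 lower, 0 had an unadjusted p under 0.05, and their median log2 fold change was 0.01 beside 0.00 over all genes. Without libraries 024 and 045, 3 were higher and 3 lower, 1 lower gene had an unadjusted p under 0.05, and the median was -0.01. Cyp1a1, the main target, had 2.09, 7.68 and 38.6 CPM in exposed lungs, against 1.16, 3.83 and 9.78 CPM in air H lungs. The highest value rests on 6 counts in library 045, and the log2 fold change of 0.43 (SE 0.52, 95% interval -0.65 to 1.51) became 0.21 without both shallow libraries. It was 0.98 with DESeq2, and over single omissions it ran between 0.20, without exposed library 046, and 0.87, without air H library 018; it was 0.72 without exposed library 023, 0.65 without exposed library 021, 0.23 without air H library 019 and 0.28 without air H library 042. Aldh3a1, an aldehyde dehydrogenase, had a log2 fold change of -0.60, Ugt1a6, a glucuronosyltransferase, 0.27, and Tiparp, an ADP-ribosyltransferase, -0.08. Among 15 NRF2 targets, 9 were higher and 6 lower with a median of 0.03; 1 higher and 2 lower genes had an unadjusted p under 0.05, beside 3.08% and 3.93% of all genes. Without both shallow libraries 9 were higher and 6 lower, 1 in each direction had such a p, and the median was 0.03. The genes with all 12 libraries were Me1 (malic enzyme), with 0.27, Fth1 (ferritin heavy chain), at 844, 900 and 1073 CPM in exposed against 973, 1044 and 1175 CPM in air H lungs, and Gclc (glutathione synthesis), with -0.19.

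A wider set of 16 enzymes of foreign compounds had more members higher than lower: 13 were higher and 3 lower with a median of 0.15, and 1 higher gene had an unadjusted p under 0.05, beside 3.08% of all genes. Without both shallow libraries 12 were higher and 4 lower, 2 higher genes had such a p, and the median was 0.13. With all 12 libraries that gene was Ephx1, microsomal epoxide hydrolase, at 64.4, 74 and 89.1 CPM in exposed lungs, against 50.1, 66.6 and 72.9 CPM in air H lungs (log2 fold change 0.29, SE 0.13, adjusted p = 0.692). Cyp2a3 had a log2 fold change of 0.89 (SE 0.47), Gstm1 0.20 and Gstm2 0.14, the last pair being glutathione transferases with close paralogs. Fmo2, the most abundant of the set, had -0.20 (SE 0.17). None of them passed the adjusted test.

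Of the inflammatory lists, chemokine, cytokine and neutrophil genes were more often lower than higher 27 days after exposure. Interferon genes gave 14 higher and 5 lower of 19, with a median of 0.07 (again 14, 5 and 0.08 without libraries 024 and 045). Acute phase and complement genes gave 7 higher and 5 lower of 12, with a median of 0.04 (5, 7 and -0.02 without them). Of 12 tested chemokines, 4 were higher and 8 lower with a median of -0.17, and 2 lower genes had an unadjusted p under 0.05, beside 3.93% of all genes (1 lower gene without libraries 024 and 045, where 4 were higher and 8 lower and the median was again -0.17). Ccl5, which draws T cells and NK cells, had 18.5, 21.3 and 24.7 CPM in exposed lungs, against 25.3, 29.3 and 34.9 CPM in air H lungs, with no overlap (log2 fold change -0.39, SE 0.13, adjusted p = 0.592). Ccl3, a macrophage chemokine, had 0, 2.46 and 5.10 CPM in exposed lungs, against 3.47, 5.00 and 5.61 CPM in air H lungs. Cxcl3, a neutrophil attractant and by far better counted, had medians of 523 CPM in exposed and 433 CPM in air H lungs (log2 fold change 0.19, SE 0.12), and Ccl24, an eosinophil attractant, had 0.51 (SE 0.32) at a median of 2.24 CPM in exposed and 1.56 CPM in air H lungs. Leaving out air H library 041 alone brought the chemokine median to -0.03, and leaving out 017 alone to -0.05. The summed chemokine level, untested members included, was 598, 731 and 770 CPM in exposed lungs, against 607, 684 and 730 CPM in air H lungs.

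Of 14 cytokine and NF-kB genes, 3 were higher and 11 lower with a median of -0.19, and the counts were the same without libraries 024 and 045, with a median of -0.20. Tnfaip3, the A20 brake on NF-kB, was the only one with an unadjusted p under 0.05 (3.93% of all genes were lower at that level), at a log2 fold change of -0.23 (SE 0.10, adjusted p = 0.663). Nfkbiz had -0.19, Csf2 -0.50 and Icam1 0.13. The list median was -0.18 within animals 017 to 024. Within animals 041 to 046 it was 0.00, with 6 higher and 6 lower. Neutrophil markers gave 1 higher and 7 lower of 8, with and without libraries 024 and 045, and a median of -0.33 (-0.34 without them) that moved to -0.60 without exposed library 046 and to -0.15 without exposed library 022. Csf3r, the receptor for granulocyte colony-stimulating factor, had 11.5, 20.3 and 28.9 CPM in exposed lungs, against 27.1, 29.4 and 33 CPM in air H lungs (log2 fold change -0.51, SE 0.15, adjusted p = 0.572). Padi4, Cxcr2 and S100a9 had -0.48, -0.31 and -0.35, each with an interval that held 0. The neutrophil median was -0.59 within animals 017 to 024. Within animals 041 to 046 it was 0.03, with 4 higher and 4 lower. Alveolar macrophage markers were even, 6 higher and 6 lower of 12 with a median of 0.00 (5 higher, 7 lower and -0.01 without both shallow libraries), including Mrc1 (0.05), Fabp5 (0.36), Msr1 (0.16), Olr1 (-0.17) and Fabp4 (-0.22).

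Genes of the airway lining leaned higher together. Of 30 tested motile cilium genes, 29 were higher and 1 lower, 10 had an unadjusted p under 0.05 in the higher direction beside 3.08% of all genes, and the median log2 fold change was 0.32 beside 0.00. Without libraries 024 and 045 the counts were 29, 1 and 10 and the median was 0.36. Summed over the 32 listed genes in the count table, untested ones included, levels were 1133, 1547 and 1752 CPM in exposed lungs. Air H lungs had 966, 1275 and 1475 CPM, so the groups overlapped. Tppp3, a tubulin-binding protein of ciliated cells, had 348, 392 and 454 CPM in exposed lungs, against 291, 335 and 352 CPM in air H lungs (adjusted p = 0.459). Dnah5, an outer dynein arm heavy chain, had 25.8, 33.3 and 36.9 CPM in exposed lungs, against 16.5, 25.1 and 30.9 CPM in air H lungs, a log2 fold change of 0.52 (SE 0.16, adjusted p = 0.591). Ccdc39, which sets the spacing of inner arms, had 0.46 and Dynlrb2, a dynein light chain, 0.52.

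Animal numbers fall into separate runs, and the cilium values are given within each; the difference between runs was not tested. Within animals 017 to 024 (4 exposed, 4 air) the cilium median was 0.59, with 30 of 30 genes higher; within animals 041 to 046 (2 exposed, 2 air, library 045 included) it was -0.06, with 10 higher and 19 lower of 29 tested there. In the per-library medians, air H libraries 017 and 018 were the lowest of their group, at -0.46 and -0.25 relative to the air H mean. Air H libraries 041 and 042 were the highest, at 0.34 and 0.31. The exposed libraries other than 024 and 045 lay between 0.25 and 0.55, while 024 lay at 0.01 and 045 at -0.29. Over all tested genes, 024 lay at -0.03 and 045 at -0.18 on the same measure. Leaving out air H library 017 gave the smallest median of any single omission, 0.22. What the runs stand for is not given in the labels.

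Promoter windows of cilium genes are shown because 29 of the 30 leaned the same way. RefSeq promoters (GRCr8, 250 bases before to 50 after the start) were matched for 25 of the 32 cilium genes in the count table. The X-box bound by RFX factors, searched by its consensus on both strands, lay in 7 of the 25 (Cfap44, Dnai1, Dnai2, Hydin, Lrrc23, Spef2 and Tekt2), beside 1.6% of 33469 promoters. The forkhead motif TGTTTAC lay in 2 of the 25, beside 3.78%. Dnai1, an intermediate chain of the outer dynein arm, and Spef2, of the central pair of the cilium, are printed with X-boxes in capitals and, in Spef2, also the forkhead letters nearest the upstream end; no capitals overlap.
Dnai1: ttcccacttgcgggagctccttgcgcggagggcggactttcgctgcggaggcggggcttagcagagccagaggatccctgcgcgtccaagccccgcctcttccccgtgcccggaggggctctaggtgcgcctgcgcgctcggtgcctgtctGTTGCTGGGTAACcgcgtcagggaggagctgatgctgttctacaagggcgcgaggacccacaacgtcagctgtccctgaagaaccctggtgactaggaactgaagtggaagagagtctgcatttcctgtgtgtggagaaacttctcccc
Spef2: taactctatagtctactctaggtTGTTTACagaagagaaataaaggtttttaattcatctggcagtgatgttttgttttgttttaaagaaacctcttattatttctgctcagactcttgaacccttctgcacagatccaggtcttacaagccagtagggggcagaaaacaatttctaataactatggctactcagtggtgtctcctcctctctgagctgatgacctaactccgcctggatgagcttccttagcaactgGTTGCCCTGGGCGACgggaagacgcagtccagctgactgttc

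The Dnai1 window is chr5:61525829-61526128 on the plus strand, with the X-box starting 99 bases before the start, and the Spef2 window is chr2:60421801-60422100 on the minus strand, with the X-box starting 8 bases after the start. Dnai1 had 0, 9.96 and 18.5 CPM in exposed lungs, against 3.84, 6.50 and 12.6 CPM in air H lungs (log2 fold change 0.40, SE 0.25), and Spef2 0, 11.1 and 14.7 CPM in exposed lungs, against 5.62, 9.79 and 13.9 CPM in air H lungs (log2 fold change 0.23, SE 0.26). Both were named for their promoters after their values were seen, and neither passed the adjusted test. The 0 values were those of library 045, where 1 count is 6.44 CPM.

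Club cell genes were all higher, 8 of 8, with a median of 0.24 (0.27 without both shallow libraries, 0.18 without exposed library 046 and 0.39 without air H library 019) and 2 at an unadjusted p under 0.05, with and without both shallow libraries, beside 3.08% of all genes. Aldh1a1, a retinaldehyde dehydrogenase of the airway, had 405, 443 and 499 CPM in exposed lungs, against 340, 368 and 402 CPM in air H lungs, and Scgb3a2, a secretoglobin, had 107, 124 and 151 CPM in exposed lungs, against 62.2, 98.8 and 103 CPM in air H lungs. Neither gene's groups overlapped, and the log2 fold changes were 0.29 (SE 0.08, adjusted p = 0.496) and 0.45 (SE 0.20, adjusted p = 0.694). The defining club cell gene did not share this: Scgb1a1 had 1449, 1942 and 2551 CPM in exposed lungs, against 1449, 1924 and 2413 CPM in air H lungs, a log2 fold change of 0.04 (SE 0.15). Cyp2f4 had 0.63 (SE 0.31) and Cyp4b1 0.11 (SE 0.07).

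Mucous cell genes were higher in 4 of 4 tested members, with a median of 0.56 (0.60 and again 4 of 4 without both shallow libraries) that was 0.18 without exposed library 023 and 0.84 without air H library 041. Agr2, a disulfide isomerase needed for mucin folding, had 0, 6.18 and 8.35 CPM in exposed lungs, against 1.99, 2.90 and 5.82 CPM in air H lungs, a log2 fold change of 1.13 (SE 0.34, adjusted p = 0.572). Muc5b, the gel-forming mucin, had 8.73, 14.3 and 30.4 CPM in exposed lungs, against 6.98, 12.7 and 23.2 CPM in air H lungs (0.36, SE 0.56), and its log2 fold change was -0.025 without exposed library 023, which held the highest value. Bpifb1 had 0.77 (SE 0.76) and Spdef, the master regulator of goblet cells, 0.11 (SE 0.21). List sums cover all members in the count table, tested or not: 32 cilium, 11 club cell and 10 mucous genes. Cilium genes had median sums of 1547 CPM in exposed, 1275 CPM in air H and 1536 CPM in air L lungs. Club cell genes had median sums of 3448 CPM in exposed, 3204 CPM in air H and 3641 CPM in air L lungs. Mucous genes had 32.7, 27.1 and 27.7 CPM in the same groups, and their air L sums ran from 22.6 to 159 CPM. Over tested members, air H minus air L gave cilium genes a median log2 fold change of -0.35, with 3 higher and 27 lower. It gave -0.444 for club cell genes (0 higher, 8 lower) and -0.999 for mucous genes (0 higher, 4 lower). How far the air H level sets the exposed minus air H differences of these lists was not tested.

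**Figure D2:**
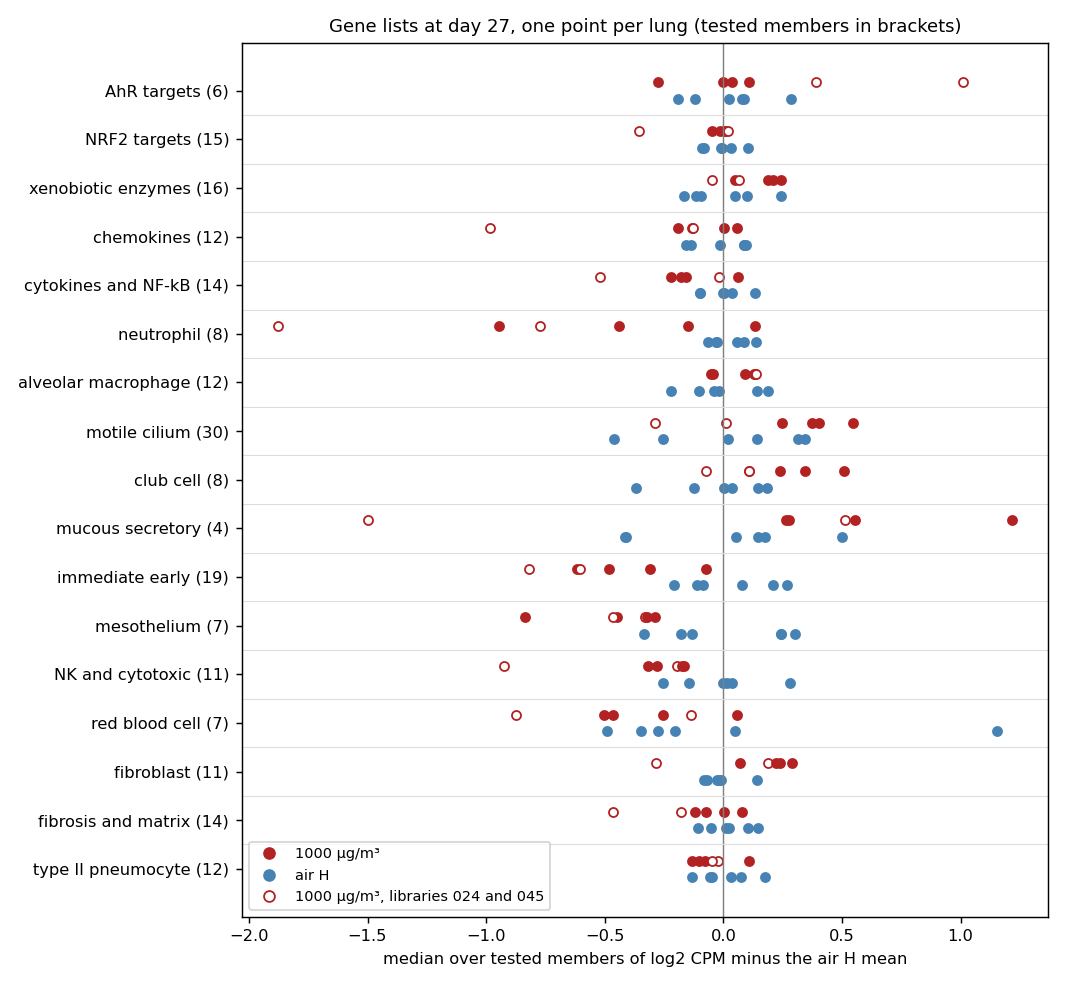
Median over each list's tested members of log2 CPM minus the air H mean, 1 point per lung, for 17 gene lists with the number of tested members in brackets; the 1000 µg/m3 lungs are drawn above the air H lungs in each row and open points are libraries 024 and 045. Immediate early genes lie below 0 in all 6 exposed lungs, and alveolar macrophage and type II genes straddle 0 in both groups. Over all tested genes, library 045 lies at -0.18 on this measure.

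Immediate early genes, which cells transcribe within minutes of a stimulus, were lower in every tested member. All 19 were lower, 8 of them at an unadjusted p under 0.05 beside 3.93% of all genes, and the median was -0.40, or -0.43 without libraries 024 and 045. Their summed level was 1175, 1276 and 1639 CPM in exposed lungs, against 1473, 1737 and 1872 CPM in air H lungs, with overlap. Air L lungs had 1146, 1503 and 1846 CPM. Air H minus air L gave these genes a median log2 fold change of 0.21, with 15 higher and 4 lower. How far the air H level sets the difference was not tested. Fos, a subunit of the AP-1 factor, had 6.44, 22.7 and 36.8 CPM in exposed lungs, against 29.5, 50.8 and 60.5 CPM in air H lungs, a log2 fold change of -0.89 (SE 0.30, adjusted p = 0.65). Dusp1, a phosphatase that turns off MAP kinases, had 70.8, 114 and 209 CPM in exposed lungs, against 140, 231 and 278 CPM in air H lungs (-0.68, SE 0.26, adjusted p = 0.663). Nr4a1, an orphan nuclear receptor, had -0.82 (SE 0.33) and Myc -0.56 (SE 0.19). Klf6, the most abundant member, had 276, 318 and 380 CPM in exposed lungs, against 299, 361 and 397 CPM in air H lungs (-0.18, SE 0.10).

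The direction of the immediate early median was the same in both runs of animal numbers. Its median was -0.24 within animals 017 to 024, with 19 of 19 genes lower, and -0.61 within animals 041 to 046, with 17 of 19 lower. The exposed libraries of the second run are 046 and the shallow 045. Any single omission left it between -0.49 and -0.32. Relative to the air H mean, the exposed lungs lay at -0.62, -0.07, -0.31, -0.61, -0.82 and -0.48 for animals 021, 022, 023, 024, 045 and 046. Over all tested genes, library 045 lay at -0.18 and 024 at -0.03 on the same measure, so part of the value of 045 is shared by all genes. Animal 022 lay within the range of the air lungs, which spread from -0.21 to 0.27.

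Promoters of this list are shown for the factors known to drive it: SRF, which binds the CArG box, and CREB, which binds the CRE (TGACGTCA). RefSeq windows were matched for 13 of 21 members. The CArG box lay in 4 (Egr1, Egr2, Klf6 and Zfp36), beside 1.64% of all promoters, and the full CRE in 3 (Btg2, Dusp1 and Ier2), beside 1.83%. Egr1, a zinc finger factor, is printed with its CArG boxes in capitals and Dusp1 with its CRE in capitals.
Egr1: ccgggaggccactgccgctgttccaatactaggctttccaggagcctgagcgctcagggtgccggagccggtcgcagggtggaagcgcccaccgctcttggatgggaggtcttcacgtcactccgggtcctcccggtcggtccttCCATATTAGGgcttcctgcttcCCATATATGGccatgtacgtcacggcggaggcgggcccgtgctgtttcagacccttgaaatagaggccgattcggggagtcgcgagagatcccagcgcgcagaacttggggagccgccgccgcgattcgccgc
Dusp1: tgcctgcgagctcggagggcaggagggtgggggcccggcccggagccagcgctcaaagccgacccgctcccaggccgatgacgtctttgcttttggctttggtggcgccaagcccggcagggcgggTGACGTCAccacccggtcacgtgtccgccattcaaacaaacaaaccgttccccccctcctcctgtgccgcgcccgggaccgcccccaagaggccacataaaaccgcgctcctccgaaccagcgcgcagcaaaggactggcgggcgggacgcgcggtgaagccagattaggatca

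The Egr1 window is chr18:26736828-26737127 and the Dusp1 window chr10:17184603-17184902 (both GRCr8, plus strand), with the CRE of Dusp1 starting 124 bases before the start and the CArG boxes of Egr1 starting 105 and 83 bases before it. Egr1 had 2.31, 6.91 and 16.1 CPM in exposed lungs, against 11.2, 13.3 and 18.9 CPM in air H lungs (log2 fold change -0.61, SE 0.37, adjusted p = 0.757), and 5 of 6 exposed lungs lay below every air H lung. The lowest value is 1 count in library 024. In library 045, 1 count is 6.44 CPM, so both shallow libraries bear little on this gene. Egr1 was named for its promoter after its values were seen. A match is a description of letters and not a site shown to be bound.

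**Figure D3:**
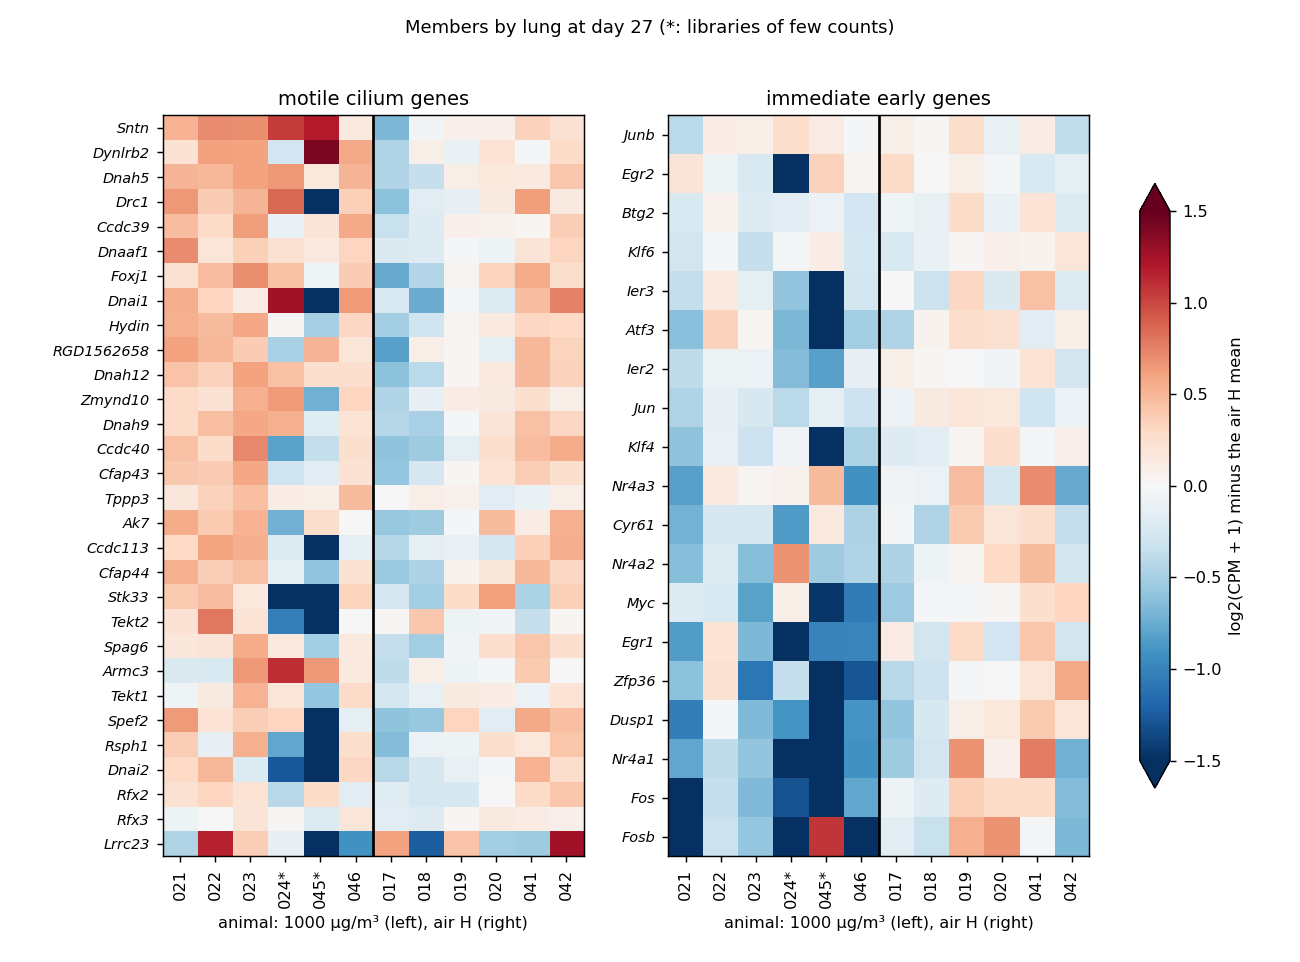
Difference of log2(CPM + 1) from the air H mean for each tested motile cilium gene (left panel) and immediate early gene (right panel) in each lung, with the 6 exposed animals left of the line and the 6 air H animals right of it; red is higher, blue lower, and asterisks mark libraries 024 and 045. Most cilium genes are blue in air H animals 017 and 018 and red in 041 and 042, and the immediate early genes with the strongest blue are in exposed animals 021, 024, 045 and 046.

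Of 11 NK and cytotoxic cell genes, 11 were lower, 2 with an unadjusted p under 0.05 beside 3.93% of all genes, and the median was -0.23. Without libraries 024 and 045 the counts were again 11 and 2 and the median -0.24. The median was -0.21 within animals 017 to 024 and -0.31 within animals 041 to 046. Their sum was 155, 165 and 188 CPM in exposed lungs, against 185, 210 and 248 CPM in air H lungs, with a small overlap. Air L lungs had 130, 175 and 274 CPM. Air H minus air L gave these genes a median log2 fold change of 0.20, with 7 higher and 4 lower. Il2rb, the shared beta chain of the IL-2 and IL-15 receptors, had 12.9, 28.5 and 35.5 CPM in exposed lungs, against 34.7, 45.7 and 49.3 CPM in air H lungs (log2 fold change -0.51, SE 0.14, adjusted p = 0.496), and 5 of 6 exposed lungs lay below the air range. Eomes, a transcription factor of NK cells, had -0.49, Cd244, an NK receptor, -0.36, and Prf1, perforin, -0.30. Other lymphoid lists were mixed: T cell genes gave 5 higher and 6 lower of 11, with a median of -0.02 (7, 4 and 0.04 without both shallow libraries), and B cell and plasma cell genes gave 4 higher and 7 lower of 11, with a median of -0.09 (3, 8 and -0.11 without them). At day 1 all 11 NK and cytotoxic cell genes were higher in exposed lungs, with a median of 0.38. At day 7, 2 of these genes were higher and 9 lower, with a median of -0.14.

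Markers of the outer surface, of which a piece of lung can hold more or less, were mostly lower. Of 7 mesothelial genes, from the lining of the lung surface, 6 were lower with a median of -0.43, 3 of them at an unadjusted p under 0.05 beside 3.93% of all genes. Without libraries 024 and 045, 6 were lower with a median of -0.48, and 2 of them had such a p, beside 3.27% of all genes. Muc16, a membrane mucin, had 32.9, 58.4 and 65.9 CPM in exposed lungs, against 68.3, 91.5 and 121 CPM in air H lungs, without overlap (log2 fold change -0.80, SE 0.25, adjusted p = 0.591). Lrrn4 had -0.70, Upk3b -0.54 and Msln -0.36, while Krt19, which airway cells also express, had 0.14. List sums, untested members included, had medians of 381 CPM in exposed, 423 CPM in air H and 388 CPM in air L lungs. The mesothelial median was -0.63 within animals 017 to 024 and 0.05 within animals 041 to 046, so that, as for the cilium list, the distance from 0 was in the first run. The part of the mesothelial share of each piece in the other differences was not tested.

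Genes of red blood cells were all lower (7 tested), with and without both shallow libraries, with a median of -0.36 (-0.39 without them) that was -0.03 without air H library 020. The median was -0.63 within animals 017 to 024, with 0 genes higher and 6 lower. Within animals 041 to 046 it was 0.36, with 4 higher and 2 lower. Hba1, alpha globin, had 534, 637 and 777 CPM in exposed lungs, against 618, 729 and 1908 CPM in air H lungs, where the highest value is library 020. Slc4a1, the band 3 anion exchanger, had 0, 3.28 and 4.35 CPM in exposed lungs, against 4.47, 5.51 and 25.5 CPM in air H lungs, and its groups did not overlap, again with the 0 in library 045. Hbb-b1 had a log2 fold change of -0.36 and Epb42 -0.77. Library 020 also held the highest Fmod value of the air group, 58.4 CPM; without it the Fmod log2 fold change was -1.02.

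Of 11 fibroblast genes, 8 were higher and 3 lower with a median of 0.20, and 3 higher genes had an unadjusted p under 0.05 beside 3.08% of all genes: Wnt2 at 13.8, 17.7 and 32.2 CPM in exposed lungs, against 11.7, 14.7 and 16.4 CPM in air H lungs, Pi16, a marker of adventitial fibroblasts, with 0.55 (SE 0.22), and Mfap5, of the microfibril, with 0.32 (SE 0.14). With 1 count worth 2.31 CPM in library 024 and 6.44 CPM in library 045, few counts set the Wnt2 level in both. Tcf21 had 0.30 and the most abundant member, Pdgfra, 0.00 (SE 0.08). Without libraries 024 and 045, 9 were higher and 2 lower with a median of 0.28, again with 3 higher genes at such a p, and the median was 0.26 within animals 017 to 024 and 0.32 within animals 041 to 046. Leaving out exposed library 023 gave a fibroblast median of 0.12 and leaving out air H library 042 one of 0.33. Fibrosis and matrix genes gave 5 higher and 9 lower of 14, with a median of -0.10 (6, 8 and -0.09 without both shallow libraries). Type II cell genes gave 5 higher and 7 lower of 12, with a median of -0.04 (3, 9 and -0.03 without them). Among those, Sftpc had 5266, 6065 and 7256 CPM in exposed lungs, against 5317, 5987 and 7522 CPM in air H lungs, a log2 fold change of 0.02 (SE 0.13, 95% interval -0.26 to 0.29). Cldn18, a tight junction claudin of the alveolus, had -0.34 (SE 0.16), Nkx2-1, the lung lineage factor, -0.24, Napsa -0.11 and Abca3 -0.09. The remaining 22 lists, the T cell, B cell, interferon and acute phase lists included, had medians between -0.15 (skeletal muscle, 1 gene tested) and 0.43 (cardiac muscle). Summed over all 10 cardiac muscle genes, levels were 20.8, 33.1 and 127 CPM in exposed lungs, against 19.9, 33 and 117 CPM in air H lungs. The cardiac muscle median was -0.24 without exposed library 046.

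**Figure D4:**
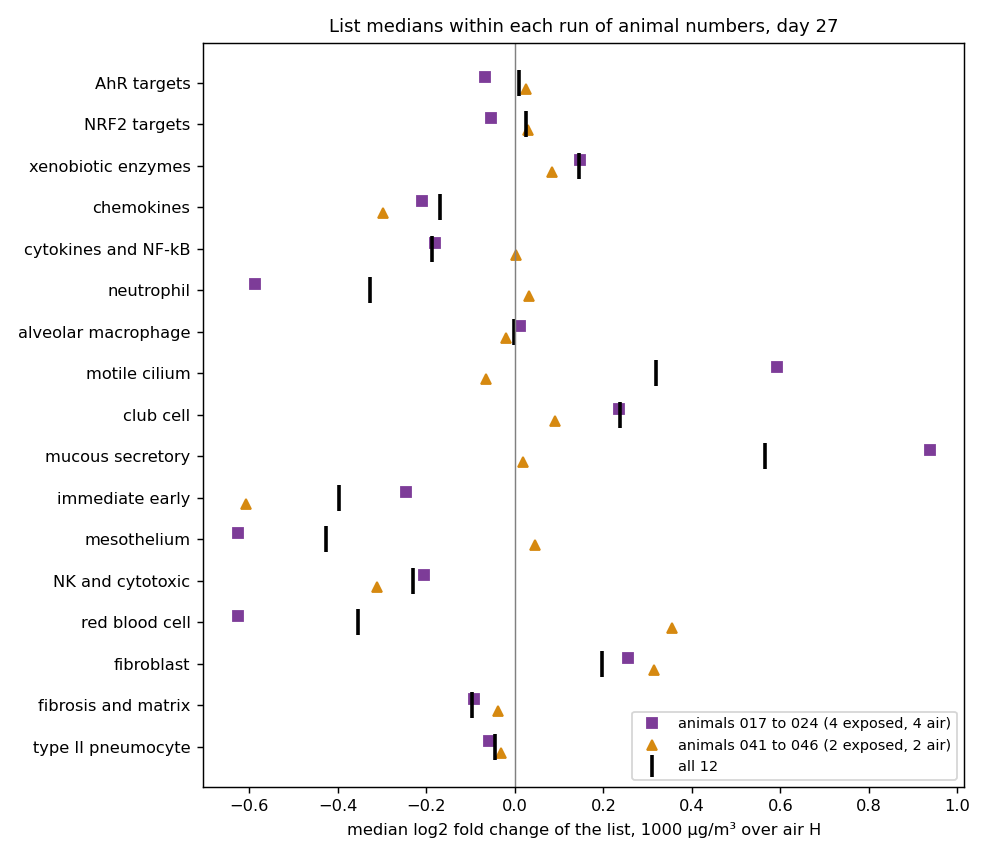
Median log2 fold change (1000 µg/m3 over air H) of 17 gene lists within animals 017 to 024 (squares, 4 exposed and 4 air), within animals 041 to 046 (triangles, 2 exposed and 2 air) and over all 12 (black bars). Cilium, mucous, mesothelial, neutrophil and red blood cell medians lie far from 0 in the first run and near or across it in the second, while immediate early, NK and fibroblast medians keep their side.

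The difference at day 27 was set against those after the same concentration at days 1 and 7, each with its own air H group. In one edgeR fit of the 36 libraries, 0 of 14502 genes differed between day 27 and day 7 (415 at an unadjusted p under 0.05, 2.86%), and 0 between day 27 and day 1 (911, 6.28%). Of the 24 genes named first, Rassf9 had the smallest adjusted p between days 27 and 7: its log2 fold change was 0.27 at day 1, -0.57 at day 7 and 0.62 at day 27, a difference of 1.19 between days 27 and 7 (SE 0.23, adjusted p = 0.0954). Fmod had 0.95 at day 1, -0.15 at day 7 and -1.21 at day 27, with an adjusted p of 0.402 for day 27 against day 1. Both genes were chosen by their day 27 values, which enter these differences, so the choice favours a distance between days. Among the lists, cilium genes had medians of -0.04, 0.24 and 0.32 at days 1, 7 and 27, with 13, 28 and 29 of 30 genes higher. Immediate early genes had medians of -0.18, 0.02 and -0.40 at the same days.

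The 200 µg/m3 group was set against air L at the same day. In the fit of 24 libraries the difference between both concentrations' effects reached an adjusted p under 0.05 in 0 of 14761 genes (1961 at an unadjusted p under 0.05, 13.3%). Cilium genes had a median of 0.32 at 1000 µg/m3, with 29 of 30 higher, and -0.14 at 200 µg/m3, with 3 of 30 higher. Immediate early genes had -0.40 and 0 of 19 higher at 1000 µg/m3, and 0.12 and 14 of 19 higher at 200 µg/m3. Steap4 had -0.96 and 0.04 at these concentrations, a difference of -1.0 with an adjusted p of 0.17. This gene was chosen by its values at 1000 µg/m3, which enter the difference, so the choice favours a distance between concentrations. Since the air groups differ from each other in 14% of the genes, a difference between concentrations and one between air groups cannot be told apart here.

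**Figure D5:**
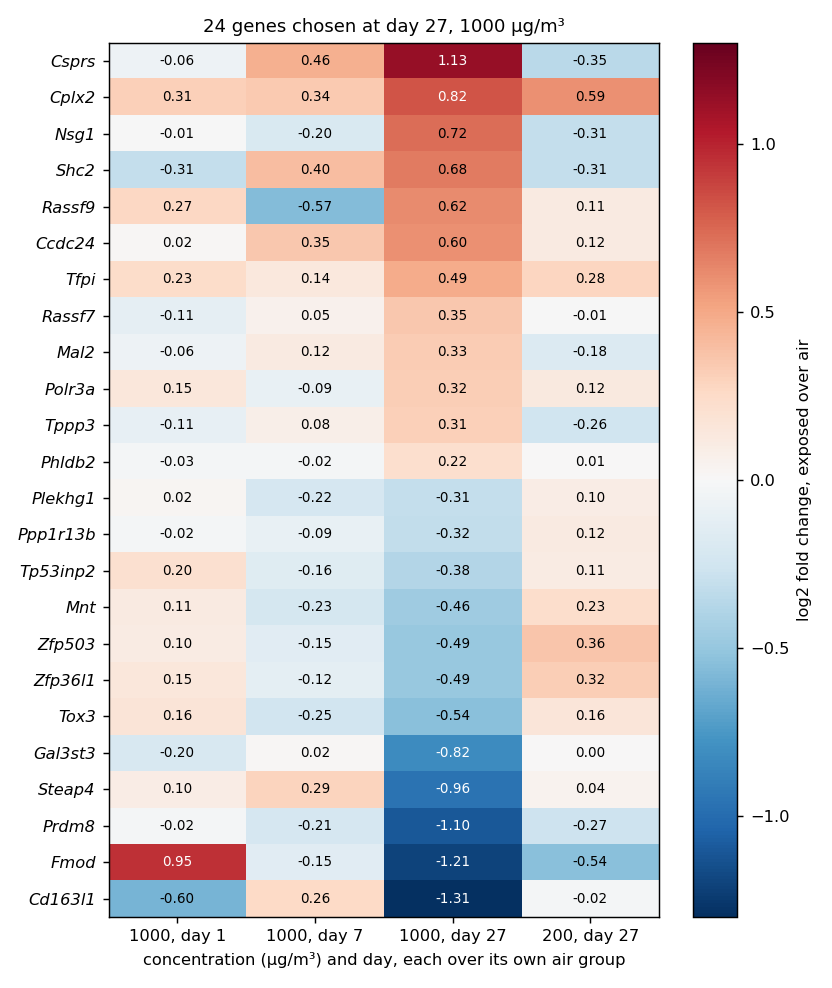
Log2 fold change over the matching air group of the 12 higher and 12 lower genes chosen at 1000 µg/m3 and day 27, in 4 comparisons: 1000 µg/m3 at days 1, 7 and 27, and 200 µg/m3 at day 27. The third column chose the genes and is a description. In the other columns the values are mostly closer to 0, which the choice favours, so no day or concentration difference is read from it. Fmod had 0.95 at day 1 and Rassf9 -0.57 at day 7.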

How the data were processed

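The lung libraries were made from rRNA-depleted RNA with a stranded kit, per the labels' protocols. The authors deposited 1 table of whole-number gene counts (30042 genes); per the submitters' processing notes the tools were bcl2fastq 2.19, Trimmomatic 0.35, HISAT2 2.1.0, SAMtools 1.8 and HTSeq 0.6.1, with the genome build Rnor_6.0. The strand setting of the counting is not given in the sources used here, so overlapping and antisense genes, and close paralogs, are uncertain.

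The 24 libraries of day 27 were fitted with edgeR 4.0.16 (limma 3.58.1, R 4.3.3): TMM factors, filterByExpr by group, robust quasi-likelihood dispersions, 1 mean per group, Benjamini-Hochberg adjustment at 0.05 over 14761 genes. Day differences came from the same fit of the 36 libraries of 1000 µg/m3 and air H. Levels are CPM on TMM-scaled library sizes. Each library is 1 animal; intervals cover the spread between animals. Alternatives were DESeq2 1.42.0, limma-voom with and without quality weights, other scalings and filters, only the 12 libraries, the runs of animal numbers as a block or fitted apart, and leaving out each library or both shallow ones. The fitting was tested on simulated data.

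Named genes were, by rule, the 12 higher and 12 lower genes with the smallest unadjusted p (mean log2 CPM of at least 0, at least 5 of 6 exposed lungs on that side of the air H median, symbols that are not identifiers), Cyp1a1, and from each described list the 4 members with the smallest p and the most abundant one; 1 gene that the rule names is not reported here. The groups, the 39 gene lists (506 genes, 499 in the table, 432 tested) and the rules were chosen with earlier results of these data known. Promoters are from RefSeq, GRCr8; no coordinates of the authors' build were used.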

Additional observations from a re-analysis of the deposited data

Results flagged for a closer look

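Within each group of 6, the gap between the most extreme lung and its neighbour was set against the range (Dixon's test at the 95% level), a rule that chance meets in about 1 group in 20. Over 96 named genes, 32 of the 194 groups tested met it. Most of the values that met it came from the libraries of few counts, where a handful of counts decides a level. In library 045 these were Fmod (32.2 CPM), Plekhg1 (109 CPM), Aldh3a1 (12.9 CPM), Ugt1a6 (19.3 CPM), Cyp1a1 (38.6 CPM), Gstm2 (167 CPM) and Cxcr2 (12.9 CPM) on the high side. On the low side in library 045 were Tiparp (25.8 CPM), Gclc (12.9 CPM), Tnfaip3 (19.3 CPM), Dnah5 (25.8 CPM) and Nkx2-1 (38.6 CPM). In library 024 Rassf9 (55.4 CPM), Csprs (13.8 CPM), Cd163l1 (9.23 CPM), Gal3st3 (11.5 CPM), Fabp4 (13.8 CPM) and Epb42 (4.61 CPM) were high, and Rassf7 (25.4 CPM) and Ppp1r13b (53 CPM) low.

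Deeper exposed libraries gave Cxcl3 low in 021 (370 CPM) and Muc5b high in 023 (30.4 CPM). Of the air H lungs, animal 020 stood apart in blood genes, with Hba1 at 1908 CPM, Hbb-b1 at 389.5 CPM and Slc4a1 at 25.5 CPM, and also in Fmod (58.4 CPM) and Pi16 (27.2 CPM). Animal 041 was low in Rassf7 (27.1 CPM) and Ugt1a6 (4.48 CPM) and high in Bpifb1 (9.46 CPM), animal 019 was high in Cplx2 (86.7 CPM), and animal 017 was low in Scgb3a2 (62.2 CPM).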

How the results depend on the processing

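The count of 0 genes past the adjusted threshold was also 0 under the other alternatives, except with DESeq2 and non-robust dispersions. DESeq2 called 6 genes, and non-robust dispersions called 2 (Fmod, adjusted p = 0.033, and LOC100911027). The fits within each run of animal numbers are not in this count. DESeq2's calls were Fmod, Steap4, Tfpi and Rassf9, plus LOC100911027 (log2 fold change -2.85) and LOC100912571 (2.15), identifiers outside the naming rule. Leaving out single libraries gave 0 throughout. Genes at an unadjusted p under 0.05 numbered 1034, against 1654 with voom quality weights and 673 to 1429 over single omissions; 673 came without exposed library 023. DESeq2 called 34 genes for the difference between concentrations and 1 for days 27 against 7. The share of higher genes among those at an unadjusted p under 0.05 was 43.9%, and 51.1% without libraries 024 and 045. The log10 difference in library totals turned to 0.0028 without those libraries (exact permutation p = 0.938).

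Of the named genes, 5 changed sign under at least 1 setting. Sftpc had -0.0063 without both shallow libraries and -0.037 to 0.084 over single omissions. Pdgfra had 0.0012 with DESeq2, 0.0020 with RLE factors, 0.016 with voom, 0.013 with quality weights, 0.0056 without scaling, 0.0046 with only the 12 libraries, 0.031 without both shallow libraries, and -0.040 to 0.031 over single omissions. Over single omissions Scgb1a1 ran from -0.056 to 0.10, Muc5b from -0.025 to 0.56 and Spdef from -0.012 to 0.21. No paired analysis was possible because exposed and air animals carry different numbers; with the runs of animal numbers as a block, 0 genes passed. Depth limits what libraries 024 and 045 show of genes under about 3 counts, 6.92 and 19.3 CPM.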
